A study of Bos taurus with 8 samples.

Results

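The miR-2284 and miR-2285 family is a set of cattle miRNAs whose mature names begin with bta-miR-2284 or bta-miR-2285, and all miRNAs with such a name were taken as its members. It held 148 of the 1028 miRNAs in the table (14.4%), of which 31 were miR-2284 names and 117 were miR-2285 names. Reads of 78 members (52.7%) were found in at least 1 of the 8 libraries, and 70 members were at 0 in every library. Among the other 880 miRNAs, 467 (53.1%) were detected. A mean above 10 CPM (read counts scaled to a common library size) over the 8 libraries was reached by 11 members (7.43%), against 232 of the other miRNAs (26.4%).

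A miRNA guides the silencing complex to messenger RNAs through its seed, a short stretch near its 5′ end, so miRNAs that share a seed are grouped as a family. The miR-2284 and miR-2285 family is expanded in ruminants, with many gene copies spread over the cattle genome. Its members were taken by name here, and whether they share a seed was not examined. In the naming system, a letter marks a mature miRNA that is closely related to the others of its number, and a 5p or 3p ending marks the arm of the hairpin precursor it comes from. Closely related members may share reads, so the split of reads between them depends on the counting and single members are uncertain to that extent.

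The libraries were made from extracellular vesicles (EVs), membrane-bound particles that carry RNA and protein between cells, of the follicular fluid (FF) that surrounds the oocyte. The summer group (SUM, 4 libraries) and the winter group (WIN, 4 libraries) were collected by ultrasound-guided ovum pick-up from the same dry *Bos taurus* beef cows in August and in winter of 1 year, and each library was a pool of 2 animals. All cows of both seasons were synchronised with a progesterone device and a GnRH analog and received FSH to stimulate follicle growth, so both groups describe stimulated cycles. Because the same animals were used in both seasons, SUM and WIN pools may share donors, but which pools share them is not given in the sources used here and the 8 pools were tested as unrelated. Season and date of collection cannot be told apart.

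In SUM replicates 1 to 4, 517138, 887254, 214004 and 902642 reads were assigned to miRNAs, against 235340, 731675, 1689467 and 558496 in WIN replicates 1 to 4. The values are CPM adjusted by the trimmed mean of M-values (TMM), and 1 read was worth 0.567 to 4.02 CPM. A member at 0 could still have been present at up to 12.1 CPM in SUM replicate 3, 11.5 CPM in WIN replicate 1 and 1.70 CPM in WIN replicate 3, the CPM of 3 reads. The gonad-enriched miR-202 was present in all libraries, at 5628 to 11850 CPM in SUM and 3086 to 5539 CPM in WIN. The summed CPM of 3 miRNAs abundant in red blood cells (miR-451, miR-486 and miR-144) was 5262 to 12731 in SUM, 25918 in WIN replicate 1 and 2439 to 8500 in the other WIN libraries, and 2 or 3 of these miRNAs were detected in each library.

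The family was a small part of the FF-EV miRNA content in both seasons. Its summed level was 1119, 1556, 1223 and 1557 CPM in SUM (replicates 1 to 4), against 655, 1585, 1163 and 1470 CPM in WIN. The WIN libraries thus held both the lowest and the highest value, and all 4 SUM libraries lay between them. The season means were 1364 ± 227 CPM for SUM and 1218 ± 416 CPM for WIN (mean ± SD, n = 4 each), and their log2 ratio (SUM over WIN) of 0.16 corresponded to a difference smaller than the SD of either season. In total, 7529 of 5736016 miRNA reads belonged to the family. Because these are bulk EV preparations, fewer vesicles carrying a miRNA and less of it per vesicle cannot be told apart.

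**Figure D1:**
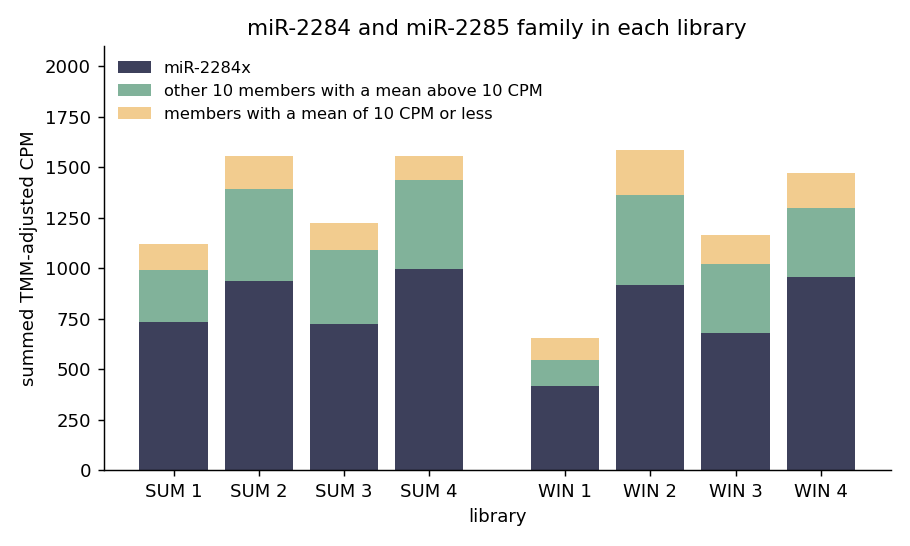
Summed TMM-adjusted CPM of the family (vertical axis) in each SUM and WIN library (horizontal axis), each bar divided into miR-2284x, the other 10 members with a mean above 10 CPM and the remaining members. WIN replicate 1 is the lowest bar at 655 CPM, the other 7 bars lie between 1119 and 1585 CPM, and miR-2284x fills more than any other division of each bar.

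As a share of all miRNA reads, the family made up 0.128% ± 0.0172 in SUM and 0.129% ± 0.0429 in WIN (SD, n = 4 each). WIN replicate 1 had the lowest share, 0.0727% (171 family reads, 95% Clopper-Pearson interval 0.0622 to 0.0844%). The next lowest library, SUM replicate 1, had 0.103% (535 family reads, interval 0.0949 to 0.113%). The 2 intervals did not overlap, although they cover counting error only. The interval of SUM replicate 1 also lay below that of WIN replicate 3 (0.116 to 0.127%), so such gaps were not particular to WIN replicate 1. The check for a single outlying library, given below, did not flag WIN replicate 1 in the family share. WIN replicate 1 was also the library with the highest summed CPM of the 3 red blood cell miRNAs and the lowest CPM of miR-202, and the part of these differences in its low family share was not tested. Without WIN replicate 1 the log2 ratio of the season means was -0.04.

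A low value in WIN replicate 1 was also seen among the higher-numbered miRNAs, those named from bta-miR-2286 to bta-miR-3999. These 285 miRNAs summed to 4599, 4822, 3701 and 4975 CPM in SUM, against 2872, 4118, 3325 and 4558 CPM in WIN. Of these miRNAs, 84 (29.5%) were detected, beside 52.7% of the family members, and 14 (4.91%) had a mean above 10 CPM, beside 7.43%. These shares were not tested.

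Expression within the family was dominated by 1 member, miR-2284x. Its level was 734, 937, 724 and 998 CPM in SUM, against 417, 916, 681 and 958 CPM in WIN. It was the first member of the family in all 8 libraries and stood 3.75 to 10.9 times above the second. Its share of the family CPM averaged 62.3% ± 3.07 over the SUM libraries and 61.3% ± 3.69 over the WIN libraries (SD, n = 4 each), and the 8 libraries lay between 57.8 and 65.6%. The season means thus differed by less than the SD of either season. WIN replicate 1 did not stand apart in this share, so the level of miR-2284x and the level of the rest of the family were both low there. Among all 1028 miRNAs, miR-2284x ranked 65th by mean CPM, and it was the only member of the family among the first 100.

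The second member, miR-2284ab, was measured at 94.1, 167, 193 and 124 CPM in SUM, against 30.6, 150, 137 and 125 CPM in WIN. It held the second place in 7 libraries, while in WIN replicate 1 that place was taken by miR-2285t. The third member by mean level, miR-2285av, had 27.2, 60.6, 32.2 and 92.9 CPM in SUM, against 15.3, 82.4, 80.0 and 58.9 CPM in WIN. Levels of the 2 seasons overlapped for both miRNAs. Together with miR-2284x, they accounted for 75.9% of the mean family CPM, and the 11 members above 10 CPM accounted for 88.5%.

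Because miR-2284x and miR-2284ab carry miR-2284 names, the smaller of the 2 name series held most of the signal. The miR-2284 names made up 74.4 to 78.9% of the family CPM in the SUM libraries and 71.9 to 76.5% in the WIN libraries. A larger number of miR-2285 names was detected (60 of 117, against 18 of 31 miR-2284 names), but 7 of these had a mean above 10 CPM, led by miR-2285av and miR-2285t.

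**Figure D2:**
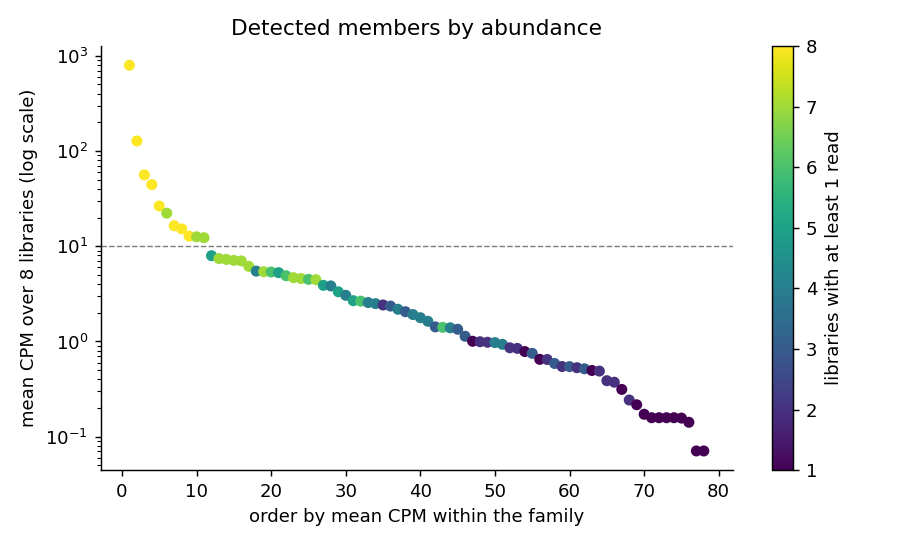
Mean CPM over the 8 libraries (vertical axis, log scale) of the 78 detected members, ordered by that mean (horizontal axis) and coloured by the number of libraries with at least 1 read. The first member is at 796 CPM, the second at 128 CPM, 11 members lie above the dashed line at 10 CPM, and members seen in 1 library lie at or below 1.01 CPM.

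The 67 detected members with a mean of 10 CPM or less summed to 149 CPM, against 796 CPM for miR-2284x alone. Of these, 36 had a mean of 1 to 10 CPM and 31 a mean under 1 CPM. Just below the limit were miR-2285bg (7.96 CPM), miR-2285au (7.42 CPM) and miR-2285ce (7.27 CPM), while the lowest members above it were miR-2284w (12.6 CPM) and miR-2285f (12.3 CPM). Counts this low carry little precision: 39 of the 78 detected members had fewer than 10 reads in all libraries together, and 9 members had 1 read.

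Presence across libraries followed the mean level. Reads in all 8 libraries were found for 8 members, namely miR-2284x, miR-2284ab, miR-2284y, miR-2285av, miR-2285t, miR-2285bo, miR-2285k and miR-2285bc. A further 12 members were found in 7 libraries, and 15 members in 1 library. The median of the mean CPM was 35.5 for the members in 8 libraries, 7.06 for those in 7 and 0.158 for those in 1. Both quantities come from the same reads, so this is a description of sampling as much as of the family.

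The number of members detected per library was 32, 45, 30 and 44 in SUM and 19, 52, 52 and 43 in WIN. The means were 37.8 ± 7.85 in SUM and 41.5 ± 15.6 in WIN (SD, n = 4 each), a difference smaller than the SD of either season. This comparison rested on WIN replicate 1: without it the difference (SUM minus WIN) was -11.3 members, larger than the SD of SUM, and it was -3.75 with all libraries. The fewest members were found in SUM replicate 3 and WIN replicate 1, the shallowest libraries. With at least 3 reads required, the numbers were 24, 32, 10 and 27 in SUM and 9, 34, 36 and 26 in WIN.

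To set the libraries on one depth, the number of members expected among 214004 reads, the depth of SUM replicate 3, was computed from the reads of each library. It was 25.7, 29.6, 30.0 and 27.1 members in SUM and 18.7, 35.8, 29.5 and 31.8 members in WIN. The season means were then 28.1 ± 2.06 in SUM and 28.9 ± 7.33 in WIN (SD, n = 4 each). WIN replicate 1 remained the lowest at equal depth, and the other WIN libraries lay at 29.5 to 35.8, against 25.7 to 30.0 in SUM. Of the other miRNAs, 285 to 293 were expected in SUM, 290 in WIN replicate 1 and 284 to 312 in the other WIN libraries. This is not a like comparison, because 26.4% of them had a mean above 10 CPM, against 7.43% of the family. The higher-numbered miRNAs were not put at equal depth. At equal depth the number of members also depends on the family share of reads, which was lowest in WIN replicate 1.

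**Figure D3:**
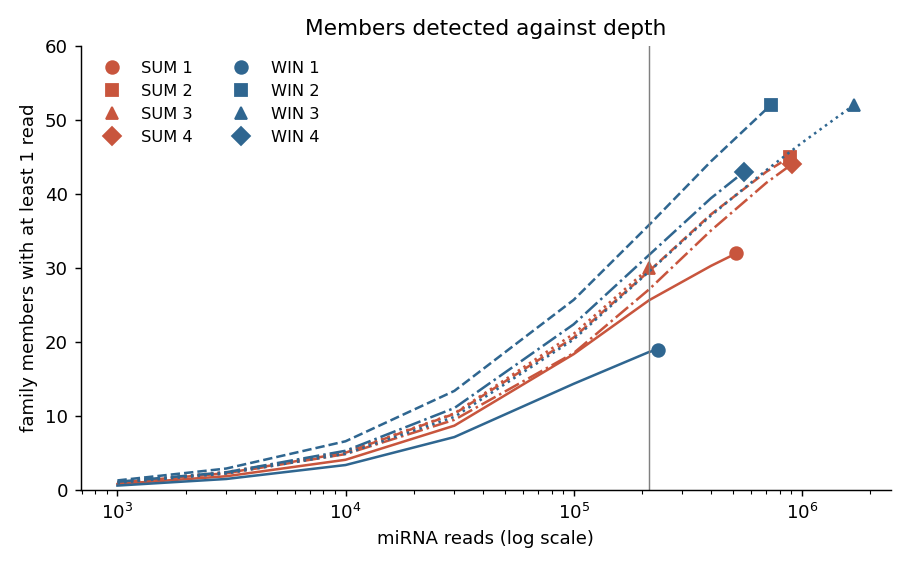
Number of family members expected with at least 1 read (vertical axis) when each library is thinned to a given number of miRNA reads (horizontal axis, log scale), with the symbol at the full depth of the library and the vertical line at 214004 reads. The curves still climbed at full depth, and at the line they ran from 18.7 members in WIN replicate 1 to 35.8 in WIN replicate 2, with the 4 SUM libraries between 25.7 and 30.0.

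Members found in 1 season only were rare in reads. There were 6 members with reads in SUM only, 16 in WIN only and 56 in both seasons. The 6 SUM members had 13 reads in total and at most 4 each, and the 16 WIN members had 50 reads in total and at most 8 each. The WIN libraries together were deeper, with 3214978 miRNA reads against 2521038 in SUM. At the depth of the pooled SUM reads, 69.3 members would be expected in WIN instead of the 72 found, against 62 in SUM. None of these members reached a mean above 10 CPM, so their presence in 1 season was not resolved at this depth. The same counts were not made over all detected miRNAs, so whether they are particular to the family is not known.

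To ask whether members differed between SUM and WIN, limma was fitted on log2(CPM + 1) of the whole set of 243 miRNAs above 10 CPM. A call needed both a fold change over 1.5 and a p below 0.1 after Benjamini-Hochberg adjustment. Fold changes below are on this log2(CPM + 1) scale, SUM over WIN, where the pseudocount shrinks the change of low members and a library at or near 0 can enlarge it. None of the 11 tested members was called, whereas 13 of the 243 miRNAs (5.35%) were called higher in SUM and 6 (2.47%) lower in SUM. At these shares fewer than 1 call among 11 miRNAs would be the background, so the absence of calls does not set the family apart. An unadjusted p below 0.05 was reached by 0 members, against 54 of the 243 miRNAs (22.2%). With edgeR and DESeq2 on the recovered reads, 0 members were called, and 0 members had an unadjusted p below 0.05, against 57 (23.5%) and 56 (23.0%) of the 243 miRNAs. DESeq2 gave no adjusted p for miR-2285f, so that member could not be called there. For none of the 11 members did the SUM and WIN libraries separate without overlap, against 39 of the 243 miRNAs (16.0%). The members were measured less precisely: the median standard error (SE) in limma was 0.58 for the 11 members and 0.37 over all 243 miRNAs. These shares are therefore not a like comparison.

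**Figure D4:**
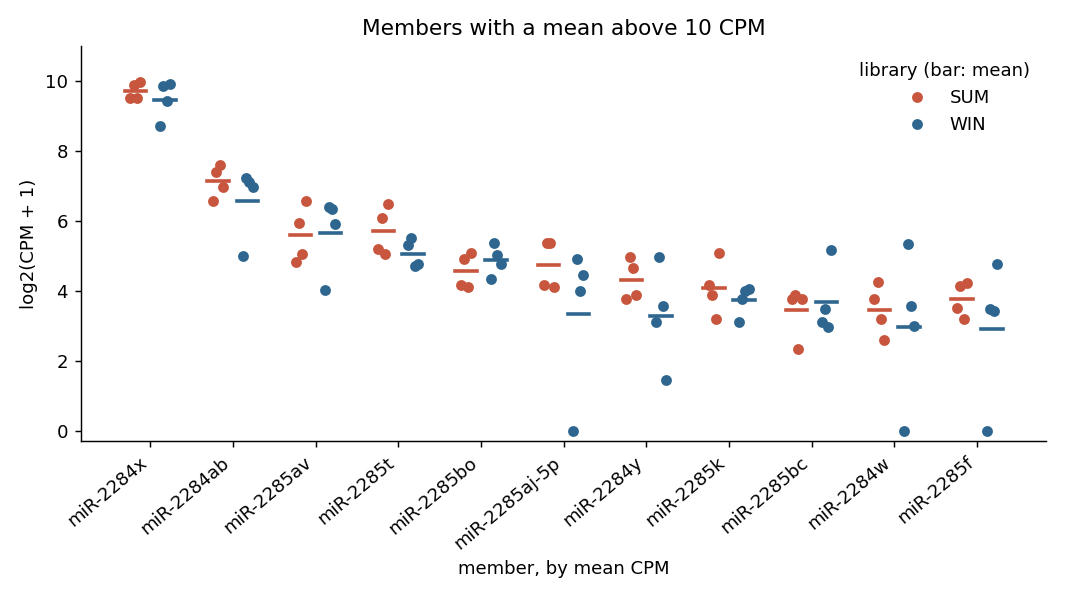
Level of the 11 members with a mean above 10 CPM, as log2(CPM + 1) (vertical axis), in each SUM library (left of each pair) and WIN library (right), with the mean as a bar. The 2 seasons overlap for every member, and the points at 0 for miR-2285aj-5p, miR-2284w and miR-2285f are all WIN replicate 1.

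Neither of the most abundant members was called. For miR-2284x the log2 fold change was 0.25 (SE 0.31, 95% interval -0.42 to 0.92, limma adjusted p = 0.66), with means of 848 ± 140 CPM for SUM and 743 ± 249 CPM for WIN (mean ± SD, n = 4 each). At the limits of this interval a moderate change in either direction remains possible. For miR-2284ab it was 0.56 (SE 0.48, 95% interval -0.50 to 1.61, limma adjusted p = 0.53). Without 1 library, the log2 fold change ran from -0.0049 to 0.39 for miR-2284x and from 0.03 to 0.78 for miR-2284ab, and the lowest value of both came without WIN replicate 1. With every library scaled to the same summed CPM, it was 0.064 for miR-2284x and 0.38 for miR-2284ab.

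The levels of miR-2285t were 35.6, 66.1, 32.2 and 87.9 CPM in SUM, against 38.3, 44.3, 25.0 and 26 CPM in WIN. SUM replicates 2 and 4 exceeded all WIN libraries, while the other SUM libraries lay within the WIN range. Its log2 fold change of 0.63 (SE 0.41, 95% interval -0.27 to 1.54) had the lowest adjusted p among the tested members (limma adjusted p = 0.36). It stayed positive without any 1 library, at 0.37 to 0.85. The next member, miR-2285bo, had 16.7, 28.9, 16.1 and 32.7 CPM in SUM, against 19.1, 40.5, 31.8 and 26 CPM in WIN, with a log2 fold change of -0.32 (SE 0.43, limma adjusted p = 0.71).

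The highest fold change among the tested members was that of miR-2285aj-5p. It was found at 16.7, 39.9, 40.2 and 16.3 CPM in SUM and at 0, 29.1, 14.7 and 20.8 CPM in WIN. Its log2 fold change was 1.41 (SE 0.97, 95% interval -0.72 to 3.54, limma adjusted p = 0.38), and without WIN replicate 1, where it had no read, it was 0.30. A similar spread was seen in miR-2284y, with 12.6, 30.3, 24.1 and 13.8 CPM in SUM, against 7.66, 30.4, 10.8 and 1.73 CPM in WIN. The lowest of these values, in WIN replicate 4, rested on 1 read, and the log2 fold change was 1.04 (SE 0.76, limma adjusted p = 0.41). It was 0.44 without that library and 1.61 without WIN replicate 2. On the recovered reads, edgeR gave 0.58 for miR-2284y and 0.64 for miR-2285aj-5p.

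Values of miR-2284w ranged from 5.02 to 17.9 CPM in SUM and from 0 to 39.3 CPM in WIN. Its mean was lower in SUM (10.9 CPM) than in WIN (14.2 CPM) while its log2 fold change was 0.47 (SE 1.06, limma adjusted p = 0.86), because the log scale gives the 0 of WIN replicate 1 more weight. Without that library the log2 fold change was -0.52. For miR-2285f, also at 0 in WIN replicate 1, the log2 fold change was 0.85 (SE 0.97, limma adjusted p = 0.63), and -0.12 without that library. In edgeR the log2 fold changes were -0.50 for miR-2284w and 0.12 for miR-2285f. The direction of both members was therefore not stable.

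For the remaining tested members, the log2 fold change was -0.071 for miR-2285av (SE 0.57, limma adjusted p = 0.96), 0.34 for miR-2285k (SE 0.58, limma adjusted p = 0.78) and -0.24 for miR-2285bc (SE 0.72, limma adjusted p = 0.89). Of the 11 log2 fold changes in limma, 8 were positive and 3 negative. Their median was 0.47, beside 0.02 over all 243 miRNAs and 0.74 over the 14 tested higher-numbered miRNAs, of which 1 was called higher in SUM. In the fits on recovered reads the family median was lower, at 0.16 in edgeR and 0.14 in DESeq2, with 7 of 11 members positive in each. Without WIN replicate 1 the family median was -0.0049, with 5 of 11 members positive, and that of the higher-numbered miRNAs was 0.62.

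**Figure D5:**
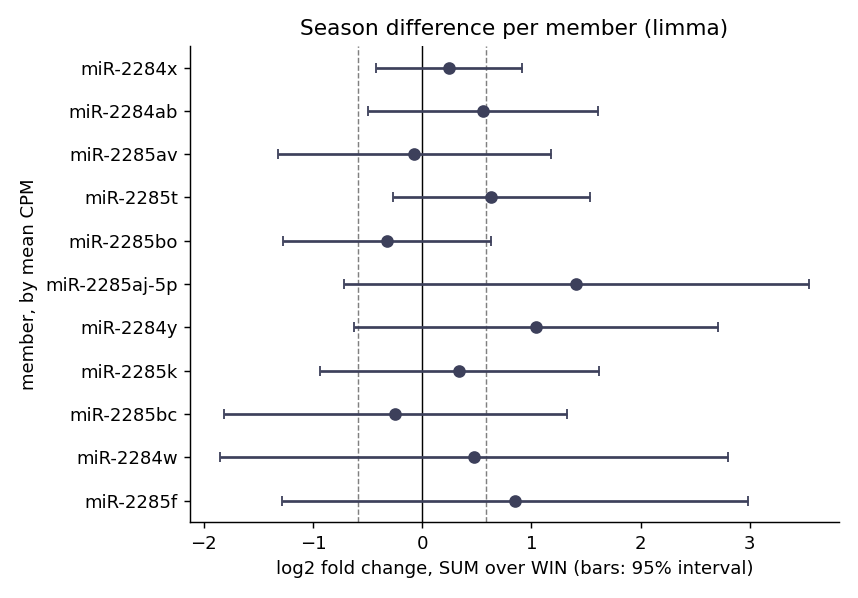
Log2 fold change (SUM over WIN, horizontal axis) of the 11 tested members (vertical axis, most abundant at the top) with 95% intervals from limma, and dashed lines at a fold change of 1.5 in either direction. All 11 intervals include 0, and the narrowest is that of miR-2284x, at -0.42 to 0.92.

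The spread between libraries, which come from both seasons and may share donors, was set beside the spread that read counts alone would give. For miR-2284x the coefficient of variation over the 8 libraries was 24.5%, beside 5.04% from its read counts. For miR-2284ab it was 38.6%, beside 12.6%. For miR-2285bo the 2 values were close, at 32.8% and 27.6%. The coefficients of variation reached 95.7% in miR-2284w. No test was made of these values.

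Lowering the limit to a mean above 1 CPM admitted 47 members, and none was called, against 8 of 422 miRNAs (1.90%) in either direction. The highest fold changes among members of 1 to 10 CPM were those of miR-2285bd (1.82, SE 0.97), miR-2285ak-5p (1.54, SE 0.92) and miR-2285dh (1.49, SE 0.83). The lowest were those of miR-2285aw (-1.90, SE 1.05), miR-2285au (-1.24, SE 0.84) and miR-2284z (-0.996, SE 0.96). These members were picked for the size of their change, and their adjusted p in limma was 0.43 to 0.69.

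The reads behind these low members were few. For miR-2285bd there were 0, 8, 3 and 3 reads in SUM and 0, 3, 0 and 0 in WIN, and for miR-2285aw 0, 0, 2 and 0 reads in SUM and 5, 6, 16 and 0 in WIN. The seasons overlapped in both. For miR-2285dh there were 1, 0, 2 and 1 reads in SUM and none in WIN. With no filter beyond detection, all 78 detected members were tested and 0 were called, against 8 of 545 miRNAs (1.47%). In that fit 1 member, miR-2285dh with 4 reads, passed an unadjusted p of 0.05, against 57 of 545 miRNAs (10.5%), and its limma adjusted p was 0.42.

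The place of the members in the genome was looked up by gene name in a RefSeq annotation of ARS-UCD2.0, a later build than the ARS-UCD1.2 used for the files, so no positions are given. The annotation listed 191 loci of the family, and 140 of the 148 members were matched. Of the loci, 125 (65.4%) lay within the span of a protein-coding gene, although strand was not considered. Many miRNAs within such genes are processed from introns of the host transcript. A single locus was listed for 115 members and 2 to 7 loci for 25 members.

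The leading member, miR-2284x, has 1 locus, within TIAM1, a gene for an activator of the small GTPase Rac. The same gene holds the locus of miR-2284i, which had 0 reads in all 8 libraries, whereas miR-2284x had 4592 reads. The locus of miR-2284ab lies within AFF1, a gene for a scaffold of the transcription elongation machinery, and that of miR-2285t within FCGR2B, a gene for an inhibitory receptor for IgG. Among the less abundant tested members, miR-2285bc lies within ORC1 (DNA replication origin recognition), miR-2284w within DOCK11 (an activator of the small GTPase CDC42) and 1 of the 2 loci of miR-2285f within TBK1 (a kinase of innate immune signalling). No protein-coding host was listed for miR-2285av, miR-2285bo or miR-2285aj-5p.

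Detection was close to 50.0% with and without a host gene. Of the 73 members with a single locus inside a protein-coding gene, 36 (49.3%) were detected, and of the 42 with a single locus elsewhere, 21 (50.0%). Of the members with several loci, 17 of 25 (68.0%) were detected, against 57 of 115 (49.6%) with a single locus. The summed level was 75.2 CPM over the 25 members with several loci and 1198 CPM over the 115 with a single locus. Of the latter sum, 796 CPM came from miR-2284x alone, so the sums do not describe a typical member. The most abundant members with several loci were miR-2284y, with 7 loci, and miR-2285k, with 5. No test was made of these shares.

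Some loci overlap in position, again without regard to strand, so overlapping loci may lie on opposite strands. Reads are known only per name, so the reads at an overlap are not known where a name has other loci. The locus of miR-2285av overlaps 1 of the 5 copies of miR-2285o, and miR-2285av had 383 reads in total and miR-2285o had 4 over all its copies. Copies of miR-2284y, which had 91 reads over all its loci, overlap a further copy of miR-2285o and the locus of miR-2285u, which had 0 reads. For miR-2284z, with 7 loci, and miR-2285y, which overlaps 1 of them, the numbers were 15 and 0 reads, and for miR-2285q and the overlapping miR-2285z 31 and 0 reads. Another copy of miR-2285o overlaps miR-2284h, whose 5p arm had 1 read. Of the precursors with both arms in the table, miR-2284t had 8 reads of the 3p arm and none of the 5p arm, and miR-2284h had too few reads to compare.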

How the data were processed

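Small-RNA libraries of FF-EVs were sequenced from 4 SUM and 4 WIN pools of 2 cows. In CLC Genomics Workbench, the authors aligned trimmed reads to ARS-UCD1.2 and assigned them to bovine miRBase miRNAs. They deposited CPM after TMM adjustment, a signal whose sum differs between libraries. The submitters' processing notes also name Bowtie2 2.2.2 and DESeq2. Each deposited value was divided by the smallest value above 0 of its library, and 100% of the 2974 values above 0 were then whole reads within 0.001.

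Seasons were compared over all 243 miRNAs with a mean above 10 CPM by limma 3.58.1 in R 4.3.3 (eBayes with trend, pseudocount 1, Benjamini-Hochberg), with calls over a fold change of 1.5 at adjusted p values below 0.1. edgeR 4.0.16 (quasi-likelihood) and DESeq2 1.42.0 were alternatives on the recovered reads, beside other pseudocounts, filters and scalings, a stricter threshold, a replicate block and leaving out libraries. The scripts for limma and edgeR were also run on simulated data, the outcome is not given here, and no result rests on it. The p-values measure the spread between pools. Expected members at equal depth came from the hypergeometric formula. Intervals are 95% Clopper-Pearson, the floor is 3 reads, and both cover counting error only. Python 3.11.15, numpy 2.4.6, scipy 1.17.1, pandas 2.3.3 and matplotlib 3.10.9 were used.

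Members and lists were chosen with earlier results of these data known. Named were members above 10 CPM, the 3 closest below, members in all libraries and the 3 largest differences each way among members of 1 to 10 CPM. Others, named for their reads, overlap or position, were chosen after their values were seen. Sequences of the members were not used here.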

Additional observations from a re-analysis of the deposited data

Results flagged for a closer look

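Over the 11 tested members, the family sum and the other per-library measures, 32 groups of 4 libraries were examined for a single library far from the other 3. Chance alone flags about 1 in 20 groups, and 2 groups passed, both for miR-2285bc. In SUM, replicate 3 was low with 4.02 CPM (1 read), against 12.6, 13.8 and 12.6 CPM in replicates 1, 2 and 4, and the gap was 0.875 of the range of the group. In WIN, replicate 4 was high with 34.7 CPM (20 reads), against 7.66, 10.1 and 6.81 CPM in replicates 1, 2 and 3, and the gap was 0.880 of the range. Without SUM replicate 3 the log2 fold change of miR-2285bc was 0.12, and without WIN replicate 4 it was 0.25, against -0.24 with all libraries.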

How the results depend on the processing

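No tested member was called in any of the 18 alternative settings of the limma, edgeR or DESeq2 fits (198 values for the 11 members, smallest adjusted p 0.21), nor at an adjusted p below 0.05. Some settings called almost none of the 243 miRNAs, so the absence of called members says little there. Without WIN replicate 4, 0 were higher and 0 lower, and without WIN replicate 2, 1 was higher and 0 lower. DESeq2 gave no adjusted p for miR-2285f, which could not be called in that setting. Whether the replicate numbers pair the pools is not known, and correlations between so few libraries cannot settle it. Deviations of same-numbered libraries correlated at -0.0196, 0.300, 0.0606 and 0.235 for replicates 1 to 4. SUM replicates 2 and 4 correlated best with the WIN library of their own number, and SUM replicates 1 and 3 did not. The replicate block gave 0 called members, with 15 miRNAs higher and 10 lower in the whole table. The calls over all miRNAs themselves moved from the 13 higher and 6 lower: 11 and 22 after equal scaling of the summed CPM, which shifted the median of all 243 to -0.17 and that of the family to 0.34, 20 and 15 in edgeR, 23 and 22 in DESeq2, 9 and 4 without trend, 6 and 2 with either wider filter, 0 to 23 and 0 to 7 without 1 library.

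The median log2 fold change of the tested members was -0.070 with no filter, where 78 members enter, 0.20 with a mean above 1 CPM, 0.16 in edgeR, 0.14 in DESeq2, and -0.0049 to 0.78 without 1 library. Of the 198 values, 14 over 6 members turned sign, none of them called in either direction: miR-2284x without WIN replicate 1 (-0.0049, the lowest of its values without 1 library, which reached 0.39), miR-2284ab without the 2 shallowest libraries (-0.13, chosen after seeing the data), miR-2285av without 1 library (-0.62 to 0.19, positive in 5 of 8), miR-2285bc (-0.48 to 0.25), miR-2285f (-0.12 to 1.46) and miR-2284w (-0.52 to 1.26, and -0.50 in edgeR, -0.48 in DESeq2 and -0.43 without the 2 shallowest). Apart from the changed sets of members or libraries, the cause was not tested. Without 1 library, the log2 ratio of the family CPM was -0.04 to 0.32, the difference in members detected (SUM minus WIN) -11.3 to -0.25, and the share of miR-2284x 61.2 to 63.3% in SUM and 60.04 to 62.5% in WIN. Over the tested members only, that share was 69.4% in SUM and 71.1% in WIN. Depth limits members near 10 CPM, where 3 reads were worth up to 12.1 CPM.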
